A study of Mus musculus with 12 samples.

Results

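The miR-129 arms are the mature small RNAs cut from the miR-129 hairpins, and 5 of them carry a name in the deposited counts, namely mmu-miR-129-5p, mmu-miR-129-1-3p, mmu-miR-129-2-3p, mmu-miR-129b-3p and mmu-miR-129b-5p (mmu for mouse, left out below). They were taken by name, and all 5 were present among the 1084 entries counted in extracellular vesicles of adipose tissue (EVs, small membrane-bound particles that cells shed) and among the 1158 analysed in hippocampus. They were chosen by their lower levels in hippocampus under a high-fat diet (HFD), so that contrast is described below and not tested. The 12 small RNA libraries came from wild-type male C57BL/6J mice kept for 12 weeks on chow or HFD, with 3 libraries of EVs and 3 of hippocampus for each diet. The sources used here do not give the ages of the mice, the fat depot or any pooling, and both diets shared the strain, sex and genotype. No label ties a library to its own animal, so each p-value below rests on a spread between libraries that may be technical. It was inferred, not labelled, that the hippocampus columns headed LFD hold the chow libraries.

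A microRNA is cut from a hairpin by the enzymes Drosha and Dicer, and either arm of the hairpin can be loaded into an Argonaute protein, where its seed (bases 2 to 8) pairs with target transcripts. miR-129-5p is abundant in brain, and in rodent neurons it is known to hold back translation of the potassium channel Kv1.1 and to take part in the weakening of synapses after prolonged activity. The 3p arms are the opposite arms of the same hairpins and have other seeds.

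The mature sequences are shown because they decide which arms can share reads. They are from RefSeq (GRCm38.p6), 5′ to 3′, with the seed in capitals.
miR-129-5p: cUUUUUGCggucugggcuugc
miR-129-2-3p: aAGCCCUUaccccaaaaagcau
miR-129b-3p: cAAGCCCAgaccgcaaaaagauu
miR-129b-5p: gCUUUUUGggguaagggcuucc
The 4 seeds differed, and 0 other miRNAs of the deposited counts with a RefSeq sequence had any of them. miR-129-1-3p is named only.

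The hairpins show where the arms lie. Capitals mark the mature arms and, in Mir129-1, also the stretch that matches the start of miR-129-2-3p.
Mir129-1: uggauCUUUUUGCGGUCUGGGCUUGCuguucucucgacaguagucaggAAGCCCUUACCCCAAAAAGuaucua
Mir129-2: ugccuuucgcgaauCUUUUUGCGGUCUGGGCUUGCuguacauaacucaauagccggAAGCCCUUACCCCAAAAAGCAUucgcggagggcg
Mir129b: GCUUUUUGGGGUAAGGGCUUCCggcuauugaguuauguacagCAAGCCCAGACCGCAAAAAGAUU
Mir129-1 lay at chr6:29022619-29022691 on the plus strand (GRCm38), in an exon of the lincRNA Gm3294. Mir129-2 lay at chr2:94241364-94241453 on the minus strand, in an intron of the lincRNA Mir670hg. Mir129b lay at chr2:94241378-94241442 on the plus strand, opposite Mir129-2. miR-129-5p is the same 21 bases from Mir129-1 and Mir129-2, so its counts cannot be divided between the loci. The 3p side of Mir129-1 matched 21 of the 22 bases of miR-129-2-3p, the first 19 of them without a break, and differed by C20U (counted from the 5′ end of miR-129-2-3p, whose base is given first). Over these bases the 3p sides of both hairpins thus differed only near their 3′ end.

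miR-129b-3p lies opposite miR-129-5p with 20 bases in common, and its counts repeated those of miR-129-5p. Both names held identical counts in all 6 EV libraries. In the 6 hippocampus libraries they differed by 58 to 128 counts, or 0.17% to 0.53%. miR-129b-5p lies opposite miR-129-2-3p, also with 20 bases in common, but their counts differed by 67.8% to 84.3% in hippocampus. Of the pairs of mature miRNAs that overlap on opposite strands by at least 15 bases at a mean of at least 5 CPM (counts scaled to a common library total), 7 of 14 in EVs and 10 of 21 in hippocampus had counts that differed by no more than 5% in any library. The sources used here do not say whether reads were counted by strand. miR-129b-3p is therefore given below as the same reads as miR-129-5p and not as a separate arm. miR-129b-5p is given under its own name because its counts differed. Whether they hold reads of the 3p arms on the opposite strand was not tested, so it may not be a separate arm either.

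Libraries held 1825488 to 5941955 counts in EVs, 2331091 to 5723918 in chow hippocampus and 11143775 to 12874600 in HFD hippocampus, so depth and diet went together in hippocampus. Chow hippocampus library 3 was the shallowest of its tissue. In hippocampus all 25 miRNAs of the neuron list were counted, at a summed level of 276178 to 468493 CPM in chow and 290284 to 357725 CPM in HFD libraries. Most of each sum was miR-9-5p, at 186739 to 379330 CPM in chow and 189628 to 221242 CPM in HFD libraries. In EVs, 23 of 25 were above 0 in each diet, summing to 3325 to 3960 CPM in chow and 5332 to 6555 CPM in HFD libraries. Levels here are CPM scaled by TMM, a factor that evens out the bulk of miRNAs between libraries. It was found separately for EVs and for hippocampus, so CPM of EVs and of hippocampus are not on a common scale. Fold changes between the tissues come from a joint fit.

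In hippocampus every miR-129 arm was lower under HFD, and miR-129-1-3p, miR-129-2-3p and miR-129b-5p had more negative fold changes than miR-129-5p. miR-129-5p, the main arm, had 33737, 48683 and 11009 counts in the chow and 52347, 40148 and 44445 counts in the HFD libraries. Scaled for depth these were 7425, 8519 and 6253 CPM in chow (mean 7399 ± 1133, SD, n = 3) and 4309.9, 3188 and 3204 CPM in HFD (mean 3567 ± 643, SD, n = 3). All 3 chow libraries lay above all 3 HFD libraries, and HFD library 1 was the highest of its diet. Its log2 fold change was -1.05 (SE 0.21), a level 2.07-fold lower. Ranked by count within each library, miR-129-5p stood at 20, 20 and 25 from the top in chow and at 35, 40 and 39 in HFD, an order that needs no scaling between libraries.

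miR-129-2-3p, the arm opposite miR-129-5p in Mir129-2, was the second most abundant of the arms. It stood at 821, 719.9 and 677 CPM in chow (mean 739 ± 74.0, SD, n = 3) and at 250.4, 219.5 and 213 CPM in HFD hippocampus (mean 228 ± 20.0, SD, n = 3). The diets did not overlap, and the libraries of each diet lay close together. The log2 fold change was -1.70 (SE 0.18), or 3.25-fold lower.

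miR-129-1-3p, named for the other hairpin, stood at 357, 246 and 180.1 CPM in chow (mean 261 ± 89.4, SD, n = 3). In HFD hippocampus it stood at 49.5, 60.1 and 53.3 CPM (mean 54.3 ± 5.39, SD, n = 3). The chow libraries were spread widely, with library 3 lowest, and the HFD libraries lay together below them. The log2 fold change of -2.27 (SE 0.29), or 4.81-fold lower, was the largest of the arms. Its raw counts were 1622, 1404 and 317 in chow and 601, 757 and 739 in HFD, so chow libraries 1 and 2 held more reads of this arm than any of the deeper HFD libraries.

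miR-129b-5p, on the plus strand opposite miR-129-2-3p, stood at 264, 201 and 106 CPM in chow (mean 190.4 ± 79.4, SD, n = 3). In HFD hippocampus it stood at 73.4, 51.4 and 47.9 CPM (mean 57.5 ± 13.8, SD, n = 3). The diets again did not overlap, and chow library 3 was nearest to the HFD libraries. The log2 fold change was -1.73 (SE 0.36), or 3.32-fold lower. miR-129b-3p repeated the value of miR-129-5p at -1.05 (SE 0.21).

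**Figure D1:**
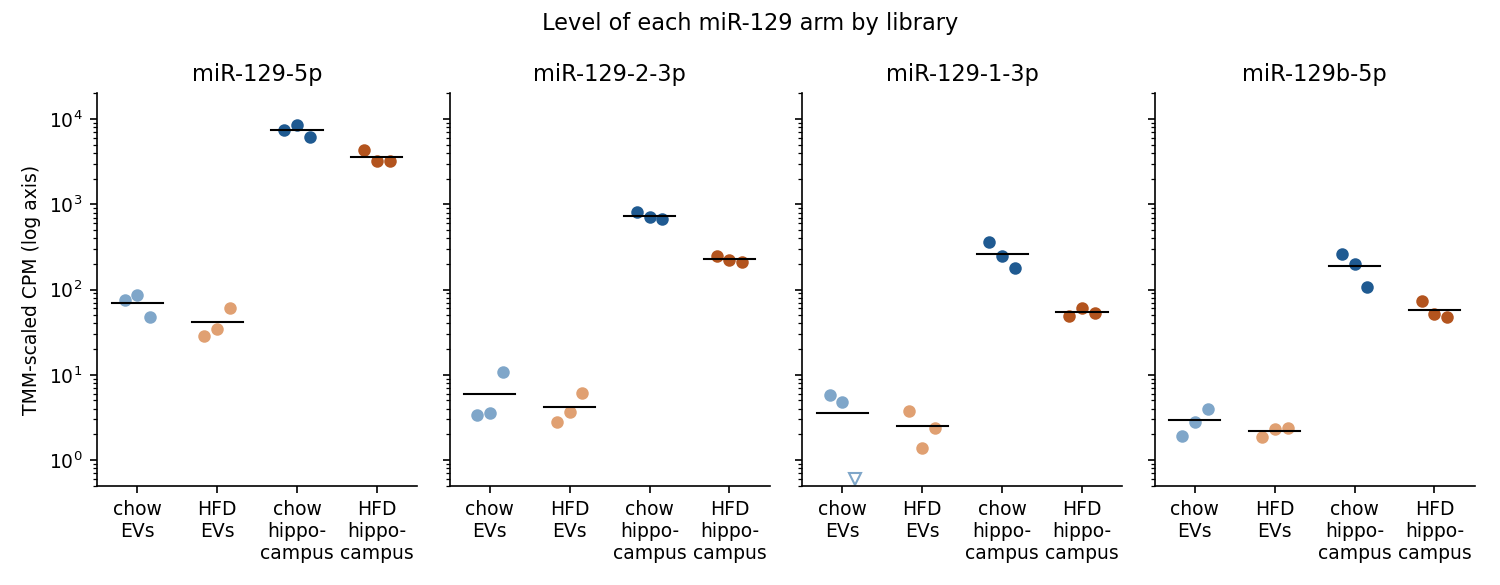
TMM-scaled CPM (log axis) of miR-129-5p, miR-129-2-3p, miR-129-1-3p and miR-129b-5p in each library, 3 points a group, with a line at the group mean; the open triangle marks a library with 0 counts and is not to scale. In hippocampus the chow points lie above the HFD points for each arm, and in EVs the diets overlap for each arm.

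Over all 552 miRNAs tested in hippocampus, 11.8% were called at an adjusted p under 0.05 (edgeR's quasi-likelihood test with Benjamini-Hochberg adjustment) and 7.43% were called lower. Libraries that did not overlap between the diets, with HFD lower, were found for 21.0% of them. All 5 names were called and none overlapped, which is how they were picked. Leaving out any 1 library other than chow library 3 ended the call of miR-129-5p and of miR-129b-5p. Ordered from the most negative fold change, miR-129-1-3p stood at position 13 of 552, miR-129b-5p at 23, miR-129-2-3p at 24 and miR-129-5p at 61. The median over all 552 was -0.13, and 0.03 when libraries were scaled by their totals instead. Under that scaling the arms stayed negative, as they did in every alternative run, at -1.16 to -0.85 for miR-129-5p, -1.78 to -1.52 for miR-129-2-3p, -2.39 to -1.95 for miR-129-1-3p and -1.95 to -1.41 for miR-129b-5p. Thinning every hippocampus library to 2331091 counts, the size of the smallest, gave -1.001 for miR-129-5p, -1.68 for miR-129-2-3p, -2.15 for miR-129-1-3p and -1.76 for miR-129b-5p.

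**Figure D2:**
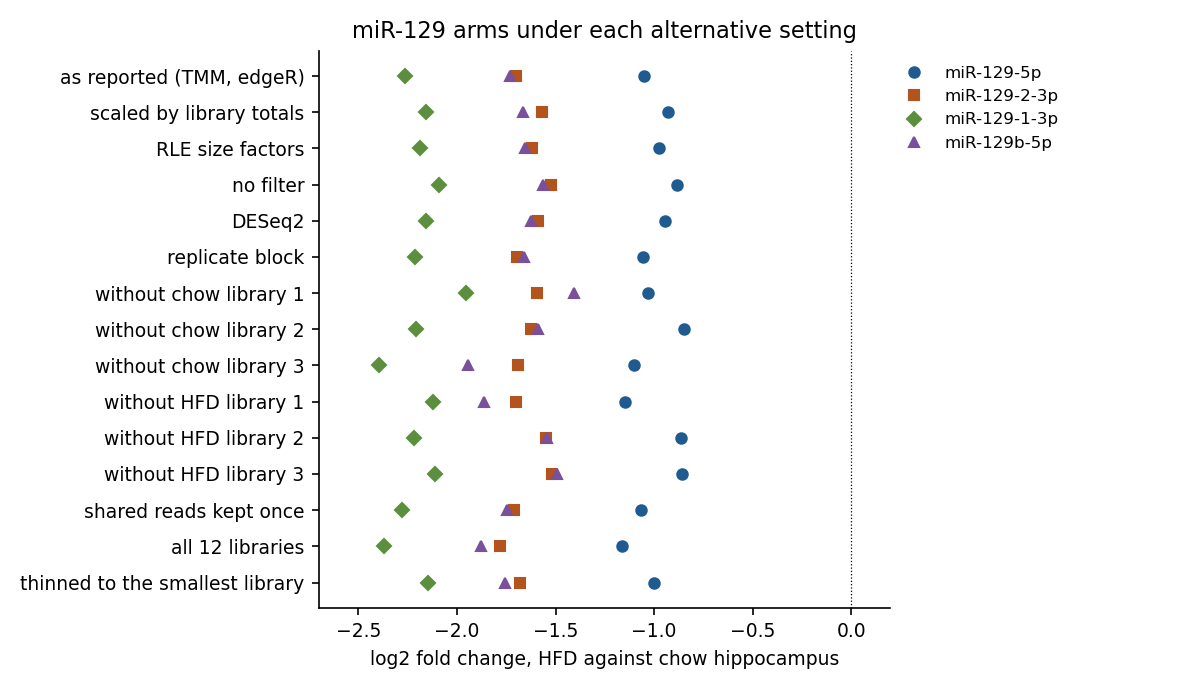
Log2 fold change of 4 miR-129 arms between HFD and chow hippocampus (horizontal axis) under each alternative setting (vertical axis), 1 marker per arm. All markers lie left of 0, with miR-129-1-3p farthest, between -2.39 and -1.95, and miR-129-5p nearest, between -1.16 and -0.85.

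Other neuronal miRNAs in hippocampus are the nearest background for the arms. Of the 25 on the neuron list, all tested, 1 rose and 2 fell, and their median log2 fold change was -0.03. Over all 552, 4.35% were called higher and 7.43% lower, so these counts were near the shares of all miRNAs. miR-132-3p, which is induced by neuronal activity, had 1567 ± 486 CPM in chow and 792 ± 21.4 CPM in HFD and fell by 0.99 (log2, SE 0.23, edgeR adjusted p = 0.0326). The brain-enriched miR-488-3p had 544 ± 47.8 and 318 ± 24.1 CPM and fell by 0.78 (log2, SE 0.18, edgeR adjusted p = 0.0285). miR-433-3p, of the imprinted Dlk1-Dio3 cluster, rose by 0.996 (log2, with 231 ± 40.7 and 460.2 ± 65.4 CPM, SE 0.21, edgeR adjusted p = 0.0262). These 3 calls rested on few libraries, since leaving out 1 library ended that of miR-132-3p in 5 of 6 cases, of miR-488-3p in 4 and of miR-433-3p in 3. miR-124-3p, the best known neuronal miRNA, had 4116 ± 2428 CPM in chow and 5120.4 ± 943 CPM in HFD. In tissue as a whole, fewer cells of a type and less of an RNA per cell cannot be told apart.

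**Figure D3:**
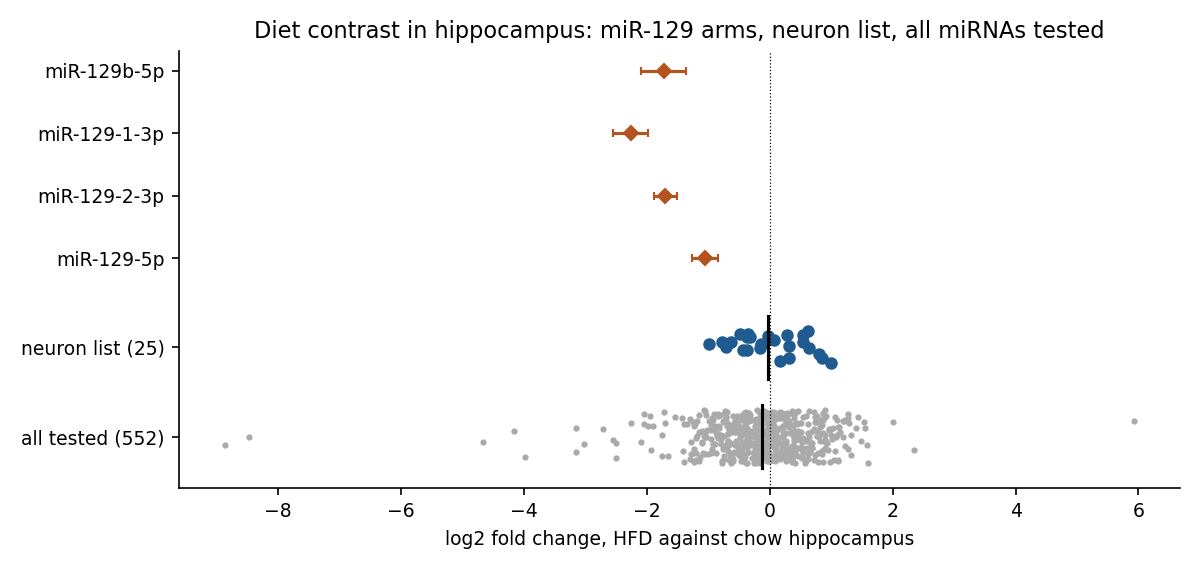
Log2 fold change between HFD and chow hippocampus (horizontal axis) for all 552 miRNAs tested, the 25 of the neuron list and 4 miR-129 arms; vertical lines are medians, bars on the arms are 1 SE, and vertical scatter within a row only separates points. The neuron list has its median at -0.03, and the 4 arms lie between -2.27 and -1.05.

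Some markers of other cell types also moved with diet in hippocampus, where 4.35% of all 552 miRNAs were called higher and 7.43% lower. The liver miRNA miR-122-5p fell from 26.2 ± 23.1 to 2.98 ± 0.45 CPM and the red cell miRNA miR-451a from 332 ± 193 to 79.9 ± 32.8 CPM (edgeR adjusted p = 0.0235 and 0.0285). Summed over the 4 members of its list, red cell miRNAs stood at 247 to 643 CPM in chow and 79.9 to 162 CPM in HFD libraries. Among 4 choroid plexus markers, miR-1298-5p fell from 1138 ± 451 to 423 ± 135 CPM (edgeR adjusted p = 0.0305), whereas miR-204-5p stood at 764 ± 106 and 767 ± 110.2 CPM, and the list summed to 1565 to 2343 CPM in chow and 1029 to 1398 CPM in HFD. The 3 muscle markers summed to 473 to 673 and 194 to 342 CPM, with miR-1a-3p falling by 1.23 (log2, SE 0.27, edgeR adjusted p = 0.0276). Most of each sum was miR-1a-3p, at a mean of 561 CPM in chow and 238 CPM in HFD. The other muscle markers were not called and went in opposite directions. Their log2 fold changes were -1.23 (SE 0.36) for miR-133a-3p and 0.63 (SE 0.50) for the scarce miR-206-3p. The 5 epithelial markers, with no member called, summed to 231 to 324 and 67.0 to 265 CPM. The 4 leukocyte markers, also with none called, summed to 176 to 458 and 184 to 206 CPM. All 4 nonetheless had negative fold changes, with a median of -0.99 (log2). Oligodendrocyte miRNAs summed to 1207 to 1406 and 1251 to 1416 CPM, with miR-338-3p 1 of 4 called and higher. Its counts equalled those of miR-3065-5p on the opposite strand. The most abundant of this list, miR-219a-2-3p, went the other way, with 945 ± 63.1 and 777 ± 45.4 CPM (log2 fold change -0.28, SE 0.16), and was not called. Endothelial miRNAs summed to 4290.5 to 5187 and 5609.9 to 5784 CPM, with miR-126a-5p 1 of 2 called and higher. Leaving out 1 library ended these marker calls in 2 to 5 of 6 cases, and their direction stayed. The epithelial marker miR-141-3p had 0 counts in chow library 2 and 4 counts over the 3 chow libraries, and every other marker of these lists was above 0 in each hippocampus library. Their part in the values of the miR-129 arms was not tested.

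The miRNAs whose profile over the 6 hippocampus libraries was most like that of each arm were found by the root mean square difference of centred log2 CPM, among 547 miRNAs. For miR-129-5p these were miR-27a-5p at 0.12, miR-30f at 0.15, miR-139-5p at 0.16, miR-30a-3p at 0.17 and miR-331-5p at 0.18, against a median of 0.69. For miR-129-2-3p they were miR-8120 at 0.15, miR-496a-3p at 0.23, miR-382-3p at 0.28, the choroid plexus marker miR-1298-5p at 0.33 and miR-27a-5p at 0.34, against a median of 0.93. For miR-129-1-3p they were miR-466d-3p at 0.44, miR-8120 at 0.45, miR-193b-3p at 0.49, miR-1298-5p at 0.51 and miR-496a-3p at 0.52, against a median of 1.19. miR-129-2-3p was nearer to miR-129-1-3p, at 0.36, than any of those 5. miR-129-5p lay at 0.66 from miR-129-1-3p and at 0.35 from miR-129-2-3p, so miR-129-2-3p was about as near to the 5p arm as to miR-129-1-3p. The arms were picked in these same libraries for being lower under HFD, so other miRNAs lower under HFD were bound to come out near. The log2 fold changes of the neighbours named ran from -1.76 for miR-193b-3p to -0.83 for miR-139-5p. The likeness is therefore a description, and variation apart from diet was not tested.

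The balance of the arms was read within each library, as miR-129-5p over the sum of both named 3p arms, with 0.5 added to each side. In chow hippocampus it was 6.30, 8.82 and 7.30, and in HFD hippocampus 14.4, 11.4 and 12.0. Each HFD library lay above each chow library. The geometric means were 7.40 and 12.5, a log2 difference of 0.76, given as a description because it holds the values that picked the arms. Within the 3p arms, miR-129-1-3p over miR-129-2-3p was 0.435, 0.341 and 0.266 in chow and 0.198, 0.274 and 0.250 in HFD hippocampus, which overlapped. In EVs, miR-129-5p over the 3p arms was 7.92, 10.2 and 4.33 in chow and 4.34, 6.57 and 7.05 in HFD libraries. That difference of -0.27 (log2) had a two-sided exact permutation p of 0.6, where 3 against 3 libraries cannot go below 0.1.

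Between the tissues the same ratio differed by 0.07 (log2, hippocampus minus EVs) in chow, where the libraries overlapped. In HFD the difference was 1.10 with no overlap, and over all 6 hippocampus and 6 EV libraries it was 0.58. These differences hold hippocampus values that picked the arms and are given without a test. miR-129-1-3p over miR-129-2-3p in EVs ranged from 0.0303 in chow library 3, which had 0 counts of miR-129-1-3p, to 1.67 in chow library 1, and its log2 difference between 6 hippocampus and 6 EV libraries was -0.80. That value was not stable, at -1.39 with 5 added to each side, at -1.60 without chow EV library 3, and at -0.45, -0.52 and -0.51 without chow EV library 1, chow EV library 2 and HFD EV library 1. miR-129b-5p over miR-129-2-3p, a ratio chosen after its values were seen and so not tested, was 0.322, 0.279 and 0.157 in chow and 0.293, 0.234 and 0.225 in HFD hippocampus. In EVs it was 0.6, 0.789 and 0.394 in chow and 0.676, 0.647 and 0.407 in HFD, all above the hippocampus libraries, from 4 to 12 counts of miR-129b-5p per library.

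**Figure D4:**
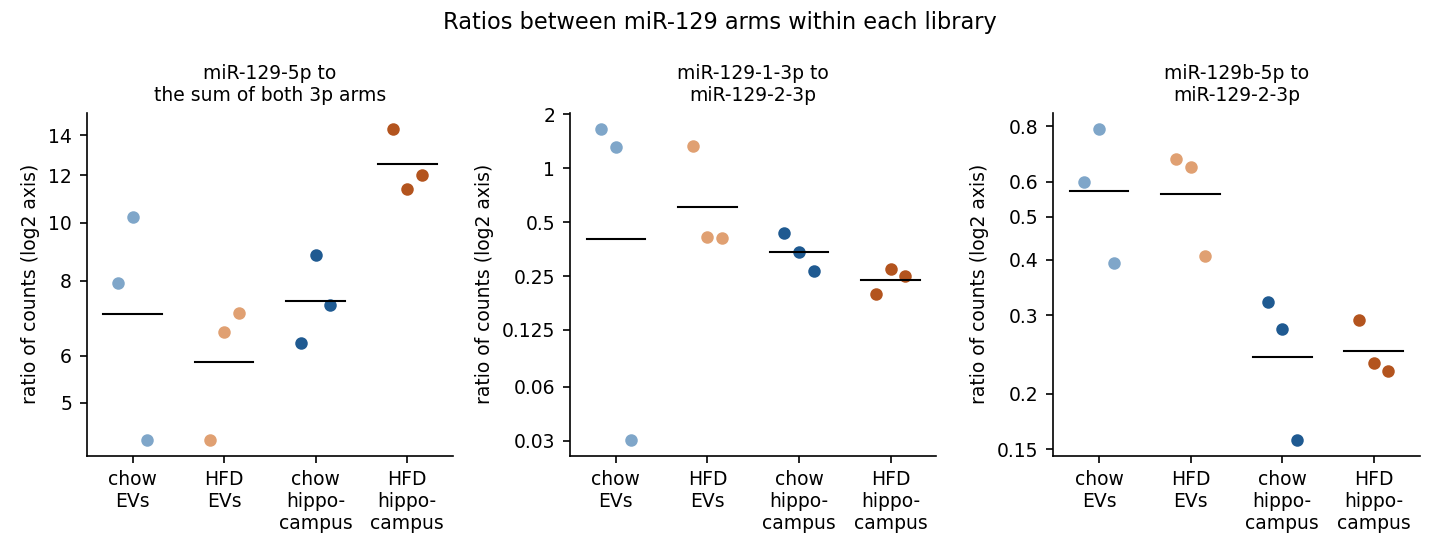
Ratios of counts between miR-129 arms (log2 axes, 0.5 added to each side) in each library, 3 points a group, with a line at the geometric mean. In the left panel the 3 HFD hippocampus libraries, at 11.4 to 14.4, lie above all others, and in the middle panel the EV libraries spread from 0.0303 to 1.67.

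Other hairpins also changed unequally between their arms. The comparison took 156 other hairpins with both arms tested in hippocampus under names that differ only in -5p and -3p. Hairpins with numbered arm names, such as miR-16-1-3p, were left out, and some names kept share reads with another. The size of the difference between the arms' log2 fold changes had a median of 0.49. For miR-129-5p against miR-129-1-3p the difference was 1.21, which 26 of the 156 exceeded, and against miR-129-2-3p it was 0.65, which 64 exceeded.

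In adipose tissue EVs the miR-129 arms were scarce. miR-129-5p had 154, 219 and 71 counts in the chow and 184, 75 and 130 counts in the HFD libraries. These were 74.5, 87.4 and 47.4 CPM in chow (mean 69.8 ± 20.4, SD, n = 3) and 28.5, 34.7 and 61.1 CPM in HFD (mean 41.4 ± 17.3, SD, n = 3). The diets overlapped, since HFD library 3 lay above chow library 3, whereas 17.0% of the miRNAs tested in EVs had all HFD libraries below all chow libraries. The log2 fold change of -0.76 (SE 0.41) did not pass edgeR's test (adjusted p = 0.282), where 4.37% of 389 miRNAs were called and 1.03% were called lower. By count it ranked 161 to 200 from the top in chow and 187 to 226 in HFD EVs.

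The other arms had too few EV counts to enter the diet test. miR-129-1-3p had 12, 12 and 0 counts in chow and 24, 3 and 5 in HFD EVs. The 0 allows up to 3 counts, a limit that covers counting error only, because copies made by PCR cannot be recognised without molecular identifiers. miR-129-2-3p had 7, 9 and 16 counts in chow and 18, 8 and 13 in HFD EVs. miR-129b-5p had 4, 7 and 6 counts in chow and 12, 5 and 5 in HFD EVs. In CPM the diets overlapped for each of these arms, and a difference between them was not detectable at this depth. Of the neuron list, 13 of 25 were tested in EVs, 1 rose and 0 fell (3.34% of all 389 were called higher and 1.03% lower). Their median log2 fold change was 0.08 against -0.13 over all 389. The riser was miR-9-3p, from 67.3 ± 31.9 to 706 ± 100.1 CPM (log2 fold change 3.39, SE 0.42, edgeR adjusted p = 0.0196), a call that ended without library 1 or 2 of either diet (adjusted p up to 0.0841 over the alternatives).

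Each miR-129 arm was higher in hippocampus than in EVs, in both diets. In chow, miR-129-5p differed by 6.51 (log2, SE 0.46), or 91.1-fold. This is given as a description, because the arms were picked in the hippocampus libraries. The other 3 arms passed the filter on low counts only through the hippocampus libraries, where they are high, so their differences too are a description with no test. They were 6.80 (SE 0.53) for miR-129-2-3p, 5.92 (SE 0.72) for miR-129-1-3p and 5.88 (SE 0.57) for miR-129b-5p. For every arm the lowest chow hippocampus library lay above the highest chow EV library. The share of all miRNAs tested that did so was not counted, so this sets the arms apart from no other miRNA. Of the 519 miRNAs tested, 79.4% were called and 44.9% were called higher in chow hippocampus than in chow EVs, and by fold change miR-129-2-3p stood at position 36, miR-129-5p at 39, miR-129-1-3p at 53 and miR-129b-5p at 54 from the top.

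With HFD the differences were 6.07 (SE 0.45) for miR-129-5p, 5.45 (SE 0.50) for miR-129-2-3p, 4.38 (SE 0.54) for miR-129b-5p and 4.0 (SE 0.67) for miR-129-1-3p, all given as a description. Here 81.5% of 519 were called and 42.6% were called higher in hippocampus. miR-129-5p stood at position 39 again, whereas miR-129-2-3p stood at 59, miR-129b-5p at 85 and miR-129-1-3p at 100. The hippocampus libraries in these contrasts are those in which the arms were picked, so the smaller HFD differences of the 3p arms repeat the diet values above.

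The scarcest neuronal miRNAs of EVs lay far below miR-129-5p there. miR-129-5p had 444 counts over the 3 chow and 389 over the 3 HFD EV libraries. miR-124-3p had 3 and 5 counts there, miR-137-3p had 1 and 1, miR-384-5p had 2 and 0, and miR-873a-5p had 0 and 1. In chow hippocampus miR-124-3p stood at 4116 ± 2428 CPM. By mean CPM in EVs, miR-128-3p, miR-218-5p, miR-7a-5p and miR-9-5p were above miR-129-5p in each diet. miR-9-3p, miR-134-5p and miR-149-5p were above it in HFD EVs only. Members of the neuron list that are scarce in EVs could pass the filter only through hippocampus, so no count or median is given for the list between the tissues. Among members also tested in EVs, the log2 difference between chow hippocampus and chow EVs was 1.39 for miR-134-5p, 2.16 for miR-7a-5p and 4.24 for miR-128-3p. It was 6.25 for miR-132-3p and 10.33 for miR-9-5p, and miR-129-5p at 6.51 lay between the last 2. These are examples, and they do not place miR-129-5p within the whole list.

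**Figure D5:**
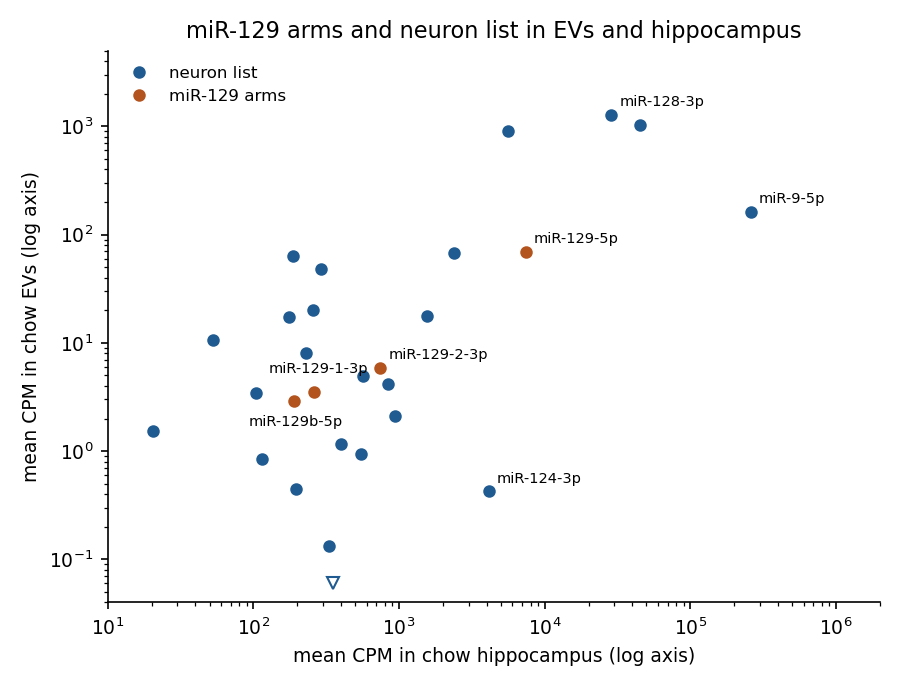
Mean CPM in chow hippocampus (horizontal, log axis) against mean CPM in chow EVs (vertical, log axis) for the 4 miR-129 arms and the neuron list. EVs and hippocampus were scaled separately. The open triangle is listed at 0 in EVs and is not to scale. miR-129-5p lies at 7399 CPM in hippocampus and 69.8 CPM in EVs, while miR-124-3p, at 4116 CPM in hippocampus, lies far lower in EVs.

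The host transcript of Mir129-2 also holds the miR-670 hairpin, named here after its values were seen. miR-670-3p had 11 counts over the 3 chow and 45 over the 3 HFD hippocampus libraries, and miR-670-5p had 1 and 7. Scaled for depth, miR-670-3p stood at 1.24 ± 0.97 and 1.15 ± 0.37 CPM in hippocampus. In EVs it had 0 and 1 counts. These counts were too few for a comparison with the miR-129 arms.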

How the data were processed

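The deposited values are raw counts of reads for each mature miRNA, whose totals differ between libraries, with libraries in columns per the file headers. The submitters' processing notes name Bowtie, with no version. The sources used here do not give the build, annotation, strand setting or treatment of reads that match several miRNAs. The hippocampus counts listed 1163 entries, and 5 blank in all 3 HFD columns used were left out; 1 column of per-sample values that matched no sample was not used.

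The tests used edgeR 4.0.16 (R 4.3.3): filterByExpr (minimum count 10), TMM, robust glmQLFit, two-sided glmQLFTest and Benjamini-Hochberg adjustment over all miRNAs tested, called at an adjusted p under 0.05. Diet contrasts used the 6 libraries of a sample type. Tissue contrasts came from 1 fit of all 12 libraries over the 852 shared entries. Alternatives were other scalings, no filter, DESeq2 1.42.0, a replicate block, thinning, shared reads counted once and leaving out each library. Chi-square per degree of freedom between replicates was 80.4 to 704, so no library repeated another. The fits were tested on simulated data.

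The arms and lists were chosen with earlier results of these data known. Named miRNAs were the arms, the 5 most alike in hippocampus to each of 3 arms (prior count 2), called neuron list members, markers of other cell types and miRNAs sharing a seed. Hairpins were placed with GENCODE's GRCm38 annotation.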

Additional observations from a re-analysis of the deposited data

How the results depend on the processing

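The fold changes of the miR-129 arms kept their sign in every alternative run, and miR-129-5p kept its side of the threshold in EVs. In hippocampus miR-129-5p was no longer called when scaled by totals or in the fit of all 12 libraries, in addition to the cases with 1 library left out. The called list members named in the text kept their direction throughout. The fold change of miR-129-2-3p in hippocampus moved by more than the spread between replicates without the low-count filter, to -1.52, and ran from -1.70 to -1.52 when 1 library was left out. The number of miRNAs called varied far more than the arms did. In EVs it was 17, and 38 scaled by library totals, 29 with RLE size factors, 56 with no filter, 53 with DESeq2, 31 with shared reads kept once, 38 in the fit of all 12 libraries and 0 to 21 when 1 library was left out. Leaving out library 1 or 2 of chow EVs, or 1 or 2 of HFD EVs, gave 0, where edgeR found 80, 95, 82 and 66 miRNAs at an unadjusted p under 0.05. In hippocampus it was 65, and 33 scaled by totals, 110 with DESeq2, 29 in the fit of all 12 libraries and 8 to 123 when 1 library was left out. Scaling by totals moved the median of all miRNAs in EVs from -0.13 to 0.16 and the calls from 13 higher and 4 lower to 33 and 5, and in hippocampus the calls from 24 higher and 41 lower to 17 and 16. The cause was not tested.

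Same-numbered libraries of the diets did not deviate together (correlations of -0.35 to 0.09). For same-numbered EV and hippocampus libraries of a diet the correlations were -0.06 to 0.19. With 3 libraries a group these values cannot exclude that the numbers pair libraries. With the replicate as a block 9 miRNAs were called in EVs and 35 in hippocampus. The fold changes in hippocampus were then -1.06 for miR-129-5p, -1.70 for miR-129-2-3p, -2.21 for miR-129-1-3p and -1.66 for miR-129b-5p.

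Ratios of arms rested on few EV counts. The tissue difference of miR-129-5p over the 3p arms across all 12 libraries was 0.84 with 5 added to both sides and 0.47 to 0.72 when 1 library was left out, and in chow alone it ran from -0.28 to 0.34. For miR-129-1-3p over miR-129-2-3p the tissue difference was -1.39 with 5 added and -1.60 to -0.45 when 1 library was left out, -2.12 to 0.77 in chow alone, and the EV diet difference -1.29 to 1.60. Leaving out chow EV library 3, which had 0 counts of miR-129-1-3p, gave -1.29, and with 0 added that ratio could not be computed there.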
